A study of Mus musculus with 6 samples.

Results

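The miR-29 family was examined in small RNA libraries from cells labelled Mes23.5, a dopaminergic hybrid of mouse neuroblastoma and rat midbrain. All 6 libraries carried the label of 24 h with LPS, the endotoxin of Gram-negative bacteria. In 3 of them (SIX2_EV) the cells received extracellular vesicles from microglia made to overexpress SIX2, a transcription factor, and in 3 (control_EV) vesicles of control microglia. The growth protocol names BV2, a mouse microglial line, so the cell of origin is given only as labelled, and separate cultures are not stated for the replicates. Members were all rows with a mature name of miR-29a, miR-29b or miR-29c, of either arm and any end variant. This gave 7 of 823 rows, which made 6 of 756 features after summing over rows that shared both name and sequence. RNA made by the cells and RNA brought by vesicles cannot be told apart in these libraries, nor can fewer cells and less RNA per cell.

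A miRNA hairpin is cut into a duplex. One strand, the guide, is loaded into Argonaute and pairs with target mRNAs mainly through its seed, bases 2 to 8, while the other strand is mostly degraded. In the miR-29 family the guide is the 3p strand. Known targets include collagens and other matrix proteins, the DNA methyltransferases DNMT3A and DNMT3B, the TET enzymes, the survival factor MCL1 and the amyloid-processing protease BACE1. In the brain miR-29 rises as neurons mature, where it holds back pro-apoptotic BH3-only genes, and it is also expressed by glia.

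The 3 guide strands are shown first because all comparisons turn on them. They are given as deposited, in DNA letters from 5′ to 3′, with the seed in capitals.
miR-29a-3p: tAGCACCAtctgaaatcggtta
miR-29b-3p: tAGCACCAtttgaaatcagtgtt
miR-29c-3p: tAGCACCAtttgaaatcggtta
All 3 shared the seed, and no other of the 724 distinct sequences in the table had AGCACCA at bases 2 to 8. Counted from 1 at the 5′ end, miR-29a-3p and miR-29c-3p were identical at 21 of 22 positions and differed by C10T alone. Between miR-29b-3p and miR-29c-3p the differences were A18G, G21T and T22A, and miR-29b-3p had 23 bases. Its last 6 bases, AGTGTT, are known as an element that directs miR-29b to the nucleus. Among 491 distinct sequences of mature names, searched on the read strand only, 2 ended in AGTGTT (0.407%), those of miR-29b-3p and miR-92b-5p. The libraries hold total RNA, so they carry no information on location in the cell.

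The other 3 members were passenger strands, shown with bases 2 to 8 in capitals to set them beside the guides.
miR-29a-5p: aCTGATTTcttttggtgttcagagt
miR-29b-1-5p: gCTGGTTTcatatggtggtttaga
miR-29b-2-5p: cTGGTTTCacatggtggcttagat
The 2 miR-29b passenger strands come from different hairpins, so they tell the loci apart where the guide cannot. No member named miR-29c-5p was among the rows. The 3 guide sequences were identical to the RefSeq mature sequences of mouse (GRCm38.p6). The passenger strands differed from RefSeq at the 3′ end only: miR-29a-5p was longer by 3 bases, miR-29b-1-5p was longer by 2 and miR-29b-2-5p ended 1 base earlier. The deposited names of the guides carry the rat prefix, and the sequences match the mouse ones in full, so mouse and rat molecules of this mouse-rat hybrid line cannot be told apart.

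In mouse the family is made from a pair of gene clusters. In RefSeq (GRCm38.p6), Mir29a lies at chr6:31062660-31062747 and Mir29b-1 at chr6:31063023-31063093, both on the minus strand with 275 bases between them. Mir29b-2 lies at chr1:195037040-195037120 and Mir29c at chr1:195037547-195037634, both on the plus strand with 426 bases between them. In GENCODE M21, on the same build, the chromosome 1 hairpins lie within an exon of the non-coding transcript A330023F24Rik and, on the opposite strand, over the UTR of Cd46. Mir29b-1 overlaps the long non-coding RNA Gm27019 by 2 bases, and Mir29a overlaps no other annotated gene. The deposited positions were offset from these by a constant -23065 bases on chromosome 6 and -317692 bases on chromosome 1, so they belong to another build, which the sources used here do not name.

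The deposited hairpin of miR-29a shows how both arms sit in the precursor, with the sequenced arms in capitals (minus strand, 88 bases).
mir-29a hairpin: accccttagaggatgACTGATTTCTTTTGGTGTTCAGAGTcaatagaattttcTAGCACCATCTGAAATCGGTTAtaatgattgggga
Searched against all GENCODE M21 transcripts on the same strand, the sequences of miR-29a-3p and miR-29a-5p occurred in Mir29a only. miR-29c-3p occurred in Mir29c and its host A330023F24Rik. miR-29b-3p occurred in Mir29b-1, Mir29b-2 and the host of the latter. The table splits miR-29b-3p evenly over both hairpins, for example 120.5 reads each in the third control_EV library, so the share of each locus was not measured by the guide.

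miR-29a-3p was the leading member in every library. Its deposited reads numbered 112, 71 and 258 with SIX2_EV, against 290.5, 575.5 and 2060 with control_EV. Among mature miRNA names above 0 it ranked 57 of 213, 59 of 190 and 54 of 305 in SIX2_EV. In control_EV it ranked 52 of 310, 49 of 348 and 34 of 493. After scaling each library by its TMM-adjusted size to a counts-per-million scale (CPM), its level was 1065, 994 and 1173 CPM with SIX2_EV, against 1060, 1442 and 1842 CPM with control_EV. The first control_EV library lay within the range of SIX2_EV and the other 2 controls lay above it, so the groups overlapped. On this scale 54 of 319 tested features (16.9%) had all SIX2_EV libraries below all controls, and none of the 3 guides was among them.

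miR-29b-3p stood well under that level, at 8.45 to 22.9 reads per 100 of miR-29a-3p. Its deposited reads were 11, 6 and 59 in SIX2_EV and 29, 72 and 241 in control_EV. Its level was 105, 84.0 and 268 CPM with SIX2_EV, against 106, 180 and 216 CPM with control_EV. The highest and the lowest level both belonged to SIX2_EV, so the groups overlapped.

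miR-29c-3p was the scarcest guide, with 3, 0 and 11 reads under SIX2_EV, against 5.5, 12.5 and 33 under control_EV. Its level was 28.5, 0 and 50.01 CPM with SIX2_EV, against 21.9, 30.03 and 29.5 CPM with control_EV. The second SIX2_EV library, where it was listed at 0, is also the one in which 5 reads are worth the most, 70.0 CPM. In the first and second control_EV libraries both miR-29a-3p and miR-29c-3p had estimated reads that were not whole, and their sums were whole (296 and 588). How reads were divided between these names was not tested.

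**Figure D1:**
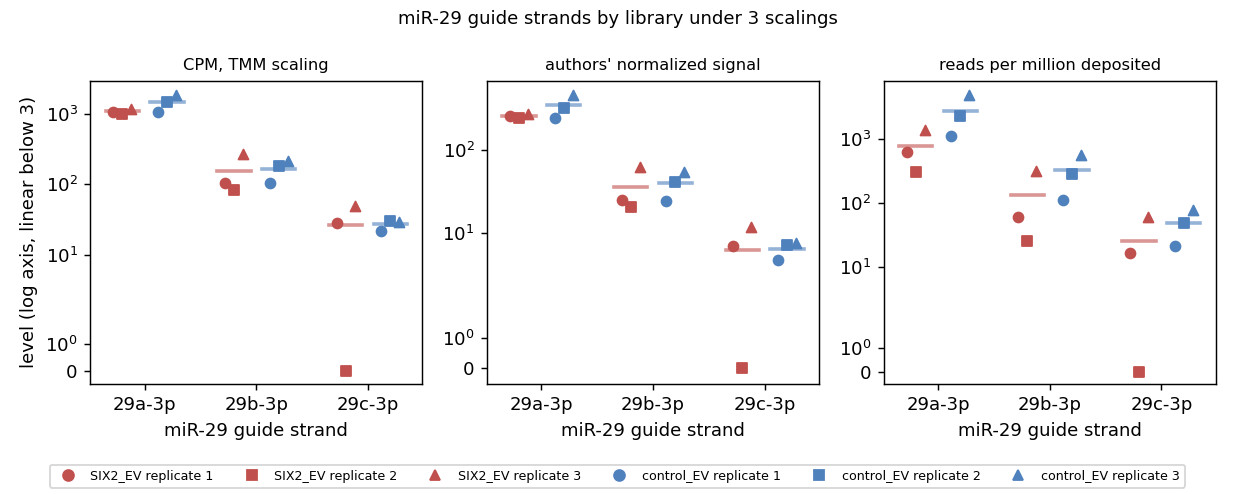
Levels of the 3 miR-29 guide strands in each library (symbols, by replicate) with group means (lines), in CPM after TMM scaling, in the authors' normalized signal and in CPM of all deposited reads. The axes are logarithmic, linear below 3. Under TMM scaling miR-29a-3p sits between 994 and 1842 CPM in all 6 libraries, while in CPM of all deposited reads it spreads from 305 to 4890.

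Within the family, proportions do not depend on how libraries are scaled. miR-29a-3p made up 88.9% (95% Wilson interval 82.2 to 93.3), 92.2% (84.0 to 96.4) and 78.7% (73.9 to 82.7) of miR-29 reads in SIX2_EV. In control_EV it made up 89.4% (85.4 to 92.2), 87.2% (84.5 to 89.6) and 87.1% (85.7 to 88.4). The group means were 86.6% ± 7.06 and 87.9% ± 1.28 (SD, n = 3), a difference smaller than the spread within SIX2_EV. Only counting error of reads enters these intervals. PCR copies of a molecule cannot be told apart here, so the intervals may be too narrow.

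The third SIX2_EV library stood apart in this make-up. miR-29b-3p took 18.0% (14.2 to 22.5) of its miR-29 reads, against 8.73% (4.94 to 14.96) and 7.79% (3.62 to 15.98) in the other 2 SIX2_EV libraries. In control_EV the share was 8.92% (6.28 to 12.5), 10.9% (8.75 to 13.5) and 10.2% (9.04 to 11.5). The interval of the third SIX2_EV library lay above those of all 3 controls and overlapped those of the other SIX2_EV libraries, which rest on 126 and 77 miR-29 reads in all. The share of miR-29c-3p was 2.38%, 0% and 3.35% in SIX2_EV and 1.69%, 1.89% and 1.40% in control_EV. Its intervals in the SIX2_EV libraries with reads, 0.813 to 6.77 and 1.88 to 5.90, overlapped those of the controls.

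**Figure D2:**
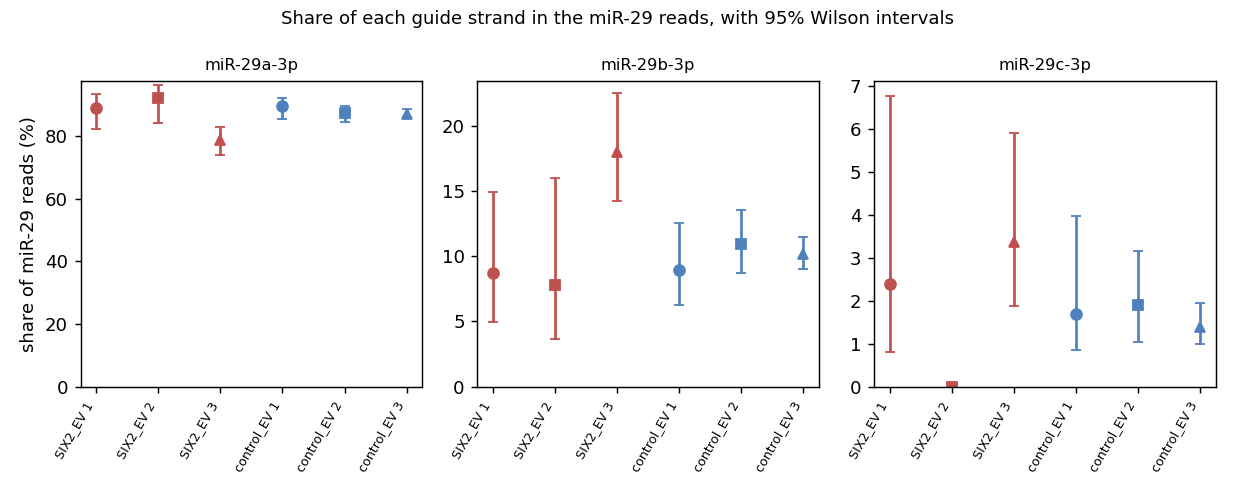
Share of each guide strand in the miR-29 reads of each library, in percent, with 95% Wilson intervals (no interval where the member was listed at 0). The third SIX2_EV library has the lowest share of miR-29a-3p, 78.7%, and the highest share of miR-29b-3p, 18.0%.

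Passenger strands were listed in 1 library only, the third control_EV library, which had the most reads. There miR-29a-5p had 10 reads, miR-29b-1-5p had 12 and miR-29b-2-5p had 8, together 1.27% (0.890 to 1.81) of miR-29 reads. Both miR-29b hairpins therefore left reads of their own. Per 100 guide reads this was 0.485 for miR-29a-5p, and 4.98 and 3.32 for the 2 passenger strands of miR-29b. For miR-29b the guide reads are those of both hairpins together, so these ratios are not on the same footing as that of miR-29a-5p. At the same ratios the other 5 libraries would hold at most 2.79, 3.59 and 2.39 reads of the 3 strands. The table gives few values below 5 reads (31 of 2410 values above 0 per sequence and library), so their absence from those libraries was not measurable at this depth.

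The comparison of SIX2_EV with control_EV asked whether the guide strands differ with the vesicles the cells received. By edgeR's quasi-likelihood test over all features, 0 of the 3 members that passed the filter on low counts were called at an adjusted p of 0.05. The background was 0 of 319 tested features (0%), with 39 (12.2%) at an unadjusted p under 0.05, none of them a miR-29 member. limma-voom also called 0 features, with 62 (19.4%) at an unadjusted p under 0.05. The 3 passenger strands did not pass the filter.

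The mean of miR-29a-3p was 1077 ± 90.1 CPM with SIX2_EV, against 1448 ± 391 CPM with control_EV (SD, n = 3). Its log2 fold change was -0.43 (SE 0.28, 95% interval -1.10 to 0.25), with an adjusted p of 0.5997 by edgeR. Without the third control_EV library, its highest, the log2 fold change was -0.06. The interval of all 6 libraries spans values on both sides of 0.

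The mean of miR-29b-3p was 152 ± 101 CPM with SIX2_EV, against 167 ± 55.9 CPM with control_EV (SD, n = 3). Its log2 fold change was -0.12 (SE 0.73, 95% interval -1.89 to 1.64), with an adjusted p of 0.964 by edgeR. Its sign turned with the library left out, from -0.67 without the third SIX2_EV library to 0.25 without the third control_EV library.

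The mean of miR-29c-3p was 26.2 ± 25.1 CPM with SIX2_EV, against 27.2 ± 4.53 CPM with control_EV (SD, n = 3). Its log2 fold change was 0.04 (SE 1.03, 95% interval -2.45 to 2.53), with an adjusted p of 0.998 by edgeR. The sign of this fitted value is opposite to that of the difference between the means. With so few reads, this interval spans large differences in either direction. Its sign was negative under total reads and in 8 more of 16 settings tried.

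**Figure D3:**
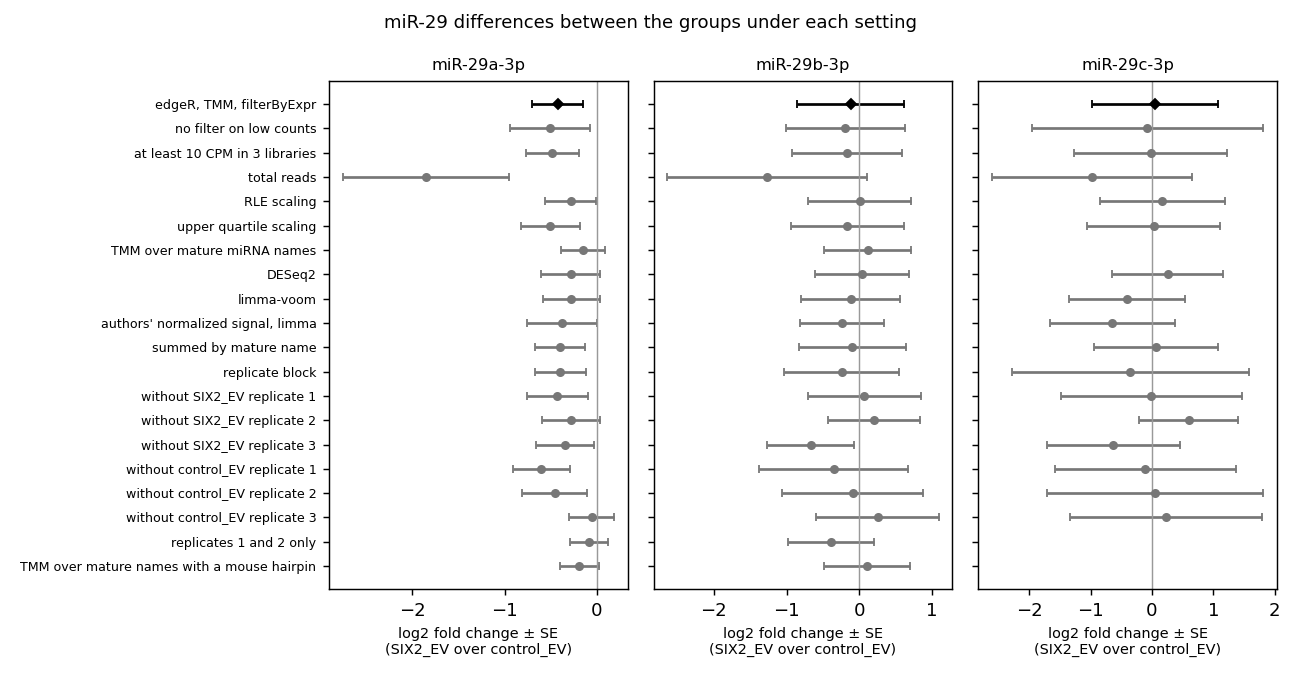
Log2 fold change of SIX2_EV over control_EV for each guide strand under every setting, with bars of 1 SE. The diamond is the edgeR fit with TMM scaling and the filterByExpr filter. All values of miR-29a-3p lie below 0, from -1.85 with total reads to -0.06 without the third control_EV library (the median of all features, not drawn, was also below 0 in each), while those of miR-29b-3p and miR-29c-3p fall on both sides.

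The size of these differences changed with the scaling. The TMM factors were 0.586, 0.308 and 1.20 in SIX2_EV and 1.07, 1.59 and 2.73 in control_EV, so the main values rest on a large correction. The libraries also differed in the share of reads with a mature miRNA name, and the part of that share in the fold changes was not tested. It was 25.5%, 26.6% and 37.8% of deposited reads in SIX2_EV and 37.2%, 59.8% and 73.4% in control_EV. As a share of all deposited reads, the 6 miR-29 members together took 0.0701%, 0.0331% and 0.178% in SIX2_EV and 0.126%, 0.261% and 0.561% in control_EV. Of reads with a mature name they took 0.276%, 0.125% and 0.471% in SIX2_EV and 0.339%, 0.436% and 0.764% in control_EV. In both, 2 SIX2_EV libraries were the lowest and the third control_EV library was the highest.

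The order changed when the denominator was limited to mature names whose hairpins include a mouse one, a choice made after seeing the data. Such names held 13.9%, 6.78% and 32.6% of deposited reads in SIX2_EV and 31.5%, 56.7% and 70.8% in control_EV. Of them miR-29 took 0.505% (0.425 to 0.601), 0.488% (0.391 to 0.609) and 0.545% (0.490 to 0.608) in SIX2_EV. In control_EV it took 0.401% (0.359 to 0.446), 0.460% (0.426 to 0.496) and 0.792% (0.761 to 0.825). All 3 SIX2_EV libraries lay between the second and the third control_EV library. The means were 0.513% ± 0.0295 and 0.551% ± 0.211 (SD, n = 3), a difference smaller than the spread between controls.

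**Figure D4:**
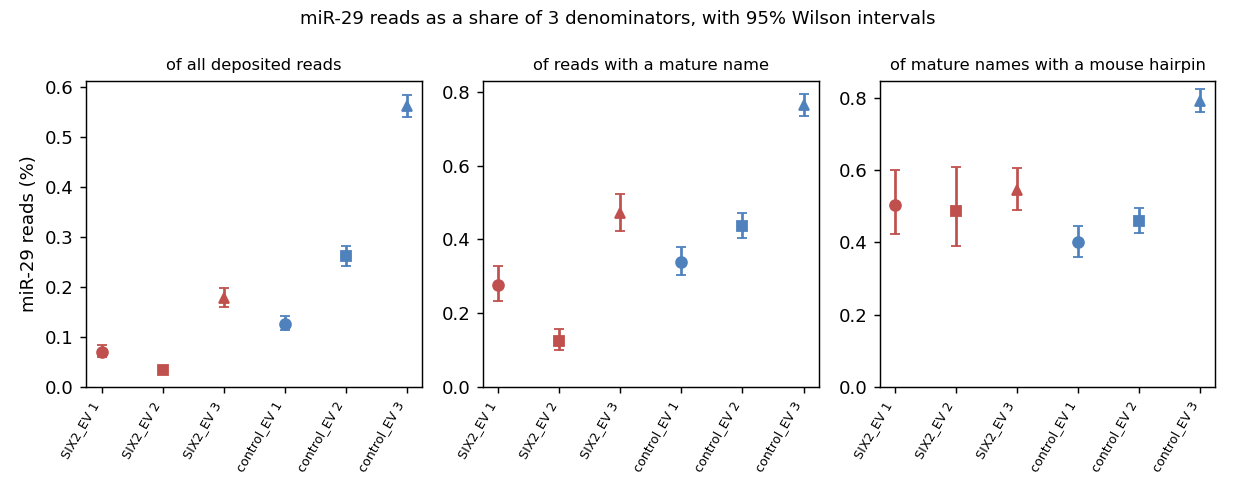
Reads of all miR-29 members as a percentage of all deposited reads, of reads with a mature miRNA name, and of mature names with a mouse hairpin, per library with 95% Wilson intervals. The spread over SIX2_EV libraries narrows from 0.0331% to 0.178% in the left panel to 0.488% to 0.545% in the right panel, and the third control_EV library is highest in all 3.

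The fold changes of all features moved with the scaling too. The median log2 fold change of the 319 tested features was -0.30 with TMM scaling and -1.54 with total reads, and that of miR-29a-3p was -0.43 and -1.85. In all 19 alternatives the median of all features was negative, as was miR-29a-3p, which lay below that median in 12 and above it in 7. In the authors' normalized signal miR-29a-3p stood at 258, 241 and 276 in SIX2_EV and 246, 326 and 467 in control_EV, with overlapping groups. Under DESeq2, which called 20 features (6.27%), and under limma on the authors' signal, which called 5 (1.57%), 0 miR-29 members were called.

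The patterns of the 3 guides were also compared across the 6 libraries. The Pearson r of log2 CPM with miR-29a-3p was 0.68 for miR-29b-3p and 0.44 for miR-29c-3p, a description over 6 libraries that share depth and scaling. Counting error lowers r where reads are few, here 6 to 241 for miR-29b-3p and 0 to 33 for miR-29c-3p. How closely the guides moved together was therefore not settled. Among 167 other mature miRNAs with a mean of at least 100 CPM, the median r was 0.43. The 5 closest in pattern to miR-29a-3p were miR-140-5p (r 0.96), let-7g-5p (0.95), miR-126a-3p (0.93), miR-103-3p (0.93) and miR-92a-3p (0.89). Like miR-29a-3p, all 5 were highest in the third control_EV library, which their choice by r makes likely in advance. For miR-140-5p the levels were 105, 126 and 136 CPM with SIX2_EV, against 124, 215 and 280 CPM with control_EV, and for let-7g-5p they were 2121, 2240 and 2605 against 2263, 2658 and 3972 CPM.

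Other miRNAs known for the same target themes were read from the same fit. Of 9 miRNAs that target DNA methylation or demethylation enzymes, all 9 were listed and 8 tested, with 0 called, 1 positive and 7 negative values and a median log2 fold change of -0.18. The most abundant, miR-22-3p, a regulator of TET enzymes, stood at 1785 ± 264 CPM with SIX2_EV, against 1999 ± 426 with control_EV (SD, n = 3, as for all means here). miR-148b-3p, which targets DNA methyltransferases, had the smallest p of the list, at 420 ± 53.7 and 765 ± 154 CPM. Its log2 fold change was -0.87 (SE 0.31), with an adjusted p of 0.368 by edgeR. Among all tested features 64.6% of values were negative and the median was -0.30. This list had relatively more negative values but a less negative median. How this list and those below differ from all features was not tested.

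Of 13 matrix and fibrosis miRNAs, 12 were listed and 8 tested, with 0 called, 7 negative values and a median of -0.16. Its most abundant member, miR-21-5p, which promotes fibrosis, had 49067 ± 14721 and 58273 ± 7012 CPM, and miR-101a-3p had the smallest p, at 2404 ± 262 and 4433 ± 1115 CPM (log2 fold change -0.88, SE 0.27, adjusted p 0.368 by edgeR). Of 8 miRNAs known to target BACE1, 6 were listed and 5 tested, with 0 called, 5 negative values and a median of -0.62. The most abundant was miR-186-5p at 2979 ± 442 and 4025 ± 524 CPM, and miR-107-3p had the smallest p, at 153 ± 38.4 and 307 ± 38.1 CPM (log2 fold change -0.997, SE 0.50, adjusted p 0.519 by edgeR).

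Markers of several cell types were set beside the labelled cell type, since neurons, astrocytes and microglia all express miR-29. These markers did not settle which cells were sequenced. Of 8 neuronal markers 5 were listed, though miR-9-5p in the first and miR-218-5p in the third control_EV library only. miR-129-5p was at 0 in the first SIX2_EV library. The summed level of the 5 was 2054 to 3037 CPM in SIX2_EV and 2303 to 3314 in control_EV, most of it miR-7a-5p. All 3 tested were negative with 0 called, and miR-128-3p had 76.1, 126 and 100.02 CPM with SIX2_EV, below 183, 270.3 and 278 with control_EV. The defining neuronal miR-124-3p, and also miR-9-3p and miR-138-5p, were not among the listed names. All 6 myeloid markers were listed, though miR-342-3p in the third control_EV library only, and miR-223-3p was at 0 in the first and second SIX2_EV libraries. Their sums were 30825 to 32607 CPM under SIX2_EV and 24775 to 47418 under control_EV. Most of this was miR-146a-5p (27811 ± 2051 and 31159 ± 11546 CPM), which LPS induces. All 5 tested were negative with 0 called, and miR-142-5p was lower without overlap, at 2549, 2772 and 3755 against 4051, 4134 and 3787 CPM. Of 4 astrocyte markers 2 were listed, though miR-145a-5p in the third library of each group only, and miR-449a-5p and miR-323-3p were not. The listed 2 summed to 450.1 to 476 CPM in SIX2_EV and 381 to 608 in control_EV, most of it miR-143-3p. All 3 red blood cell markers were listed, at 13890 to 21248 and 8683 to 30683 CPM, most of it miR-451a, and 2 of 3 were negative with 0 called. Among them miR-144-3p was lower without overlap, at 1522, 1470.05 and 1296 against 2026, 2147 and 1825 CPM. The summed level of each list overlapped between groups. The 3 single markers without overlap, chosen after their values were seen, stand beside 16.9% of all tested features. The part of such cells in the miR-29 levels was not tested.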

How the data were processed

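Small RNA libraries came from Trizol-extracted total RNA by TruSeq preparation, per the labels' protocols. The authors cleaned the reads with ACGT101-miR, which took out adapter dimers, repeats and other RNA classes. The sources used here give no build, miRBase release or mapping setting. The deposited table holds estimated counts per sequence and locus (raw, per the file headers), split where a read has several places, and the authors' normalized signal, which is the counts times 1 factor per library.

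Rows of the same name and sequence were summed and rounded to whole reads. Deposited reads numbered 179621 to 421279 per library, and 5 reads are worth 4.47 to 70.0 CPM. The groups were compared with edgeR 4.0.16 (R 4.3.3; quasi-likelihood, TMM, filterByExpr, no block, Benjamini-Hochberg over all tested features at 0.05). SE is the log2 fold change divided by the root of F. The procedure was also run on simulated counts from a common mean profile with a single dispersion. These libraries differ in make-up, so that run does not test their scaling. DESeq2 1.42.0 and limma 3.58.1 (log2 of signal + 1) served as alternatives. Log2 CPM used a prior count of 2. Named features were all members, the most abundant and smallest-p member of each theme list, and the 5 features most like miR-29a-3p. 8 list names were matched to the form deposited for rat or, for miR-486, hamster, after the names were seen. Members and lists were chosen with earlier results of these data known. As separate cultures are not stated, p-values reflect only the spread of these libraries, which may be technical, and an exact permutation test of 3 against 3 cannot go below 0.1.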

Additional observations from a re-analysis of the deposited data

How the results depend on the processing

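No miR-29 member passed the threshold under any setting tried, and the count of called features stayed at 0 (0 with each library left out) except for 20 with DESeq2 and 5 with limma on the authors' signal. miR-29a-3p was negative in all 19 alternatives, between -1.85 with total reads and -0.06 without the third control_EV library (adjusted p 0.344 to 0.979). The median of all features was negative in the same 19, from -1.54 to -0.04, and miR-29a-3p minus that median ranged from -0.31 to 0.54, below 0 in 12 and above 0 in 7. It ranged from -0.60 to -0.06 with 1 library left out and was -0.087 in replicates 1 and 2 alone. miR-29b-3p turned positive with RLE scaling (0.0059), TMM over mature names (0.11), TMM over mature names with a mouse hairpin (0.11, added after seeing the data) and DESeq2 (0.038), and ranged from -0.67 to 0.25 with 1 library left out. miR-29c-3p turned negative with no filter (-0.077), a filter of 10 CPM (-0.023), total reads (-0.98), limma-voom (-0.40), limma on the authors' signal (-0.65) and the replicate block (-0.35), and ranged from -0.63 to 0.60 with 1 library left out. The cause of these turns was not tested. miR-29c-3p did not pass the filter with TMM over mature names, with or without the mouse hairpin limit, or in replicates 1 and 2 alone. The mean miR-29 share in SIX2_EV was 0.290% of mature-name reads, 0.0938% of all reads and 0.513% of mature-name reads with a mouse hairpin. With 1 library left out, the share of mature-name reads was 0.2001% to 0.373% in SIX2_EV and 0.388% to 0.6001% in control_EV, and the share of miR-29a-3p in miR-29 reads was 83.8% to 90.5% and 87.2% to 88.3%. Same-numbered libraries' deviations from their group means correlated at 0.21, 0.067 and 0.67, the last being the highest value of any pair. The second SIX2_EV library correlated best with the first control_EV library (0.62). With so few libraries these values cannot settle whether replicate numbers mark a pairing or a shared batch. With the replicate block 0 features were called, and miR-29a-3p and miR-29b-3p were at -0.40 and -0.24. Depth limits miR-29c-3p and the passenger strands most.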

Other observations

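Ratios between 2 miRNAs of the same library need no scaling, and those below were computed after seeing the data. Per 1000 reads of the abundant miR-21-5p, reads of miR-29a-3p numbered 25.4, 25.3 and 17.8 with SIX2_EV, against 19.8, 21.7 and 33.6 with control_EV. Per 1000 reads of let-7f-5p they numbered 176, 161 and 138, against 119.7, 136 and 248. Per 1000 reads of miR-146a-5p, which LPS induces, they numbered 37.1, 33.9 and 46.1, against 32.2, 34.5 and 97.9. Per 1000 reads of miR-30c-5p they numbered 700, 855 and 439, against 534, 681 and 909. By each of these 4 partners the third control_EV library had the most miR-29a-3p and the groups overlapped.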
